A study of Mus musculus with 4 samples.

Results

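Gzmb-expressing CD8 T cells of the mouse pleural effusion were selected on their RNA counts, cell by cell: at least 2 molecules of the CD3 genes Cd3d, Cd3e and Cd3g together, at least 1 of Cd8a or Cd8b1, at least 1 of Gzmb, and under 20 molecules of the myeloid gene Lyz2 per 10000. There were 393 such cells among 13578 filtered cells, or 2.89%. RNA molecules were counted by unique molecular identifiers (UMIs), short tags that mark each captured molecule once. A filtered cell had at least 1000 UMIs, at least 200 detected genes and at most 10% of its UMIs from mitochondrially encoded genes.

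The cells came from pleural fluid of C57BL/6 mice with malignant pleural effusions of Lewis lung carcinoma (LLC), a transplantable mouse lung tumour line. All 4 groups carried the tumour and received 1 injection into the pleural space on day 11. The first group received PBS, the second 1 µg of LNP-cGAMP, the third 30 µg of the anti-PD-L1 antibody 10F.9G2, and the fourth both agents at these doses. Fluid was collected on day 13, 48 h after the injection, and red blood cells were lysed. Each group was 3 mice whose cells were pooled into a single droplet library, loaded with 4000 cells. The design therefore holds 4 libraries and no replicate of a treatment. Mice within a pool cannot be told apart, and no p-value is given between treatments.

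CD8 T cells kill target cells by releasing granules that hold perforin, which opens membranes, and granzymes, proteases that start cell death in the target. Gzmb encodes granzyme B, which naive CD8 T cells lack and which they make after activation through the antigen receptor. cGAMP is the second messenger that the DNA sensor cGAS makes to activate STING, an adaptor that drives type I interferon production. Type I interferon acts on T cells to raise interferon-stimulated genes and can add to their activation. PD-L1 is the ligand of the inhibitory receptor PD-1, which activated CD8 T cells carry.

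The 4 libraries held between 68828158 and 88855120 UMIs and between 2821 and 3830 filtered cells. The labels do not give the sex of the mice. Counts of Xist and of 4 Y-linked genes put the female share of the other cells with a call at 0.955% in the PBS library, 0.197% with LNP-cGAMP, 68.1% with anti-PD-L1 and 77.8% with the combination. Of the called members, 0 of 13, 0 of 166, 34 of 49 and 86 of 90 were female in the same order, so treatment and sex of the mice move together. Some results below are also given with female members left out, which means without members that had an Xist UMI. Results given without that setting can change under it too. This kept 15 male members and 13 with no sex gene UMI with anti-PD-L1, and 4 and 31 with the combination. The members kept are therefore not a male set. Libraries shared 89 barcodes of filtered cells, and no barcode was a member in 2 libraries. The doublet caller marked at most 0.106% of cells of a library and is treated as not having worked, so doublets remain.

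The numbers of members were 18 with PBS, 186 with LNP-cGAMP, 65 with anti-PD-L1 and 124 with the combination. Their share of all filtered cells was 0.638% with PBS (exact 95% interval 0.379 to 1.01), 4.86% with LNP-cGAMP (4.20 to 5.59), 1.92% with anti-PD-L1 (1.49 to 2.45) and 3.49% with the combination (2.92 to 4.15). Intervals in this text cover counting error only. The PBS library had the lowest share and LNP-cGAMP the highest, and the interval of neither anti-PD-L1 nor PBS overlapped those of the 2 LNP-cGAMP libraries. T cells as a whole were 2.80%, 7.23%, 4.23% and 5.10% of cells in the order just given for the 4 libraries, which is kept below. CD8 T cells were 57.0%, 75.5%, 68.5% and 77.3% of the T cells.

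Among CD8 T cells, the share with a Gzmb UMI was 40% of 45 with PBS, 89.0% of 209 with LNP-cGAMP, 66.3% of 98 with anti-PD-L1 and 88.6% of 140 with the combination. Deep cells have more chances to show a gene, so every cell was also thinned at random to 2000 UMIs, and 2 cells that had fewer were left out. The thinned shares were 28.9% (16.4 to 44.3), 78.7% (72.5 to 84.1), 56.1% (45.7 to 66.1) and 77.1% (69.3 to 83.8). Both LNP-cGAMP libraries stood above anti-PD-L1, which stood above PBS, and the 2 LNP-cGAMP libraries overlapped. In B cells, which do not make granzyme B, 0 of 74 thinned cells had a Gzmb UMI, which allows a share of up to 4.05% over the 4 libraries together. Of these B cells 10 came from the LNP-cGAMP library, where free RNA held 941 CPM of Gzmb against 76.9, 115 and 167 CPM with PBS, anti-PD-L1 and the combination, so the background there is little limited. Unthinned, 1 of 75 B cells had one, a cell of the LNP-cGAMP library, at a median depth of 5966 UMIs against 23653 UMIs in the members. In this pooled design, more cells of this kind in the fluid and fewer cells of other kinds cannot be told apart.

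**Figure D1:**
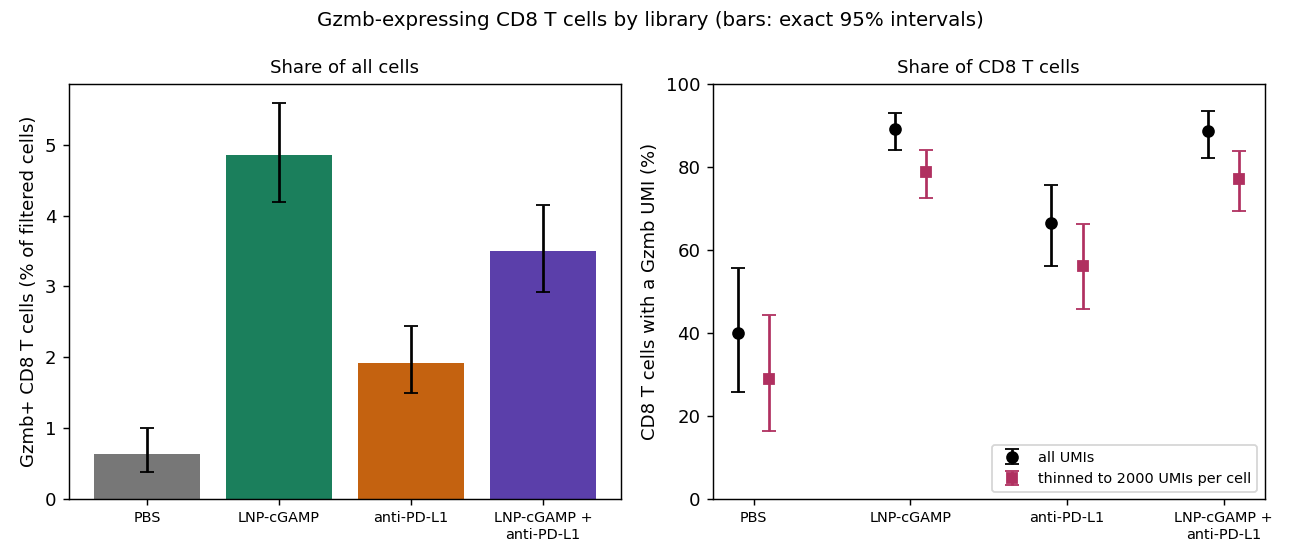
Gzmb-expressing CD8 T cells in the 4 libraries. Left, their share of filtered cells in percent (bars, with exact 95% intervals); right, percent of CD8 T cells with a Gzmb UMI, with all UMIs (circles) and after thinning to 2000 UMIs per cell (squares). The share of cells runs from 0.638% with PBS to 4.86% with LNP-cGAMP, and thinning lowers each share of CD8 T cells but keeps PBS lowest and anti-PD-L1 next.

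The amount of Gzmb per member differed too, and since Gzmb chose the cells this is a description. The median member had 12 Gzmb UMIs with PBS, 73.5 with LNP-cGAMP, 19 with anti-PD-L1 and 80.5 with the combination. Per 10000 UMIs the medians were 3.93 (quartiles 2.97 to 11.0), 36.1 (12.6 to 67.8), 10.3 (4.38 to 25.4) and 35.9 (10.2 to 64.3). Cells with at least 100 Gzmb UMIs numbered 4 of 18, 81 of 186, 15 of 65 and 52 of 124. The ranges of single cells overlapped between all libraries, but the lower quartile of LNP-cGAMP lay above the upper quartile of PBS. Median depth was 26512.5, 23779, 16572 and 25512 UMIs, so the libraries with more Gzmb per cell were not deeper than PBS. Gzmb lies at 56258838 to 56262260 on chromosome 14 (minus strand) of GRCm38, the assembly that mm10 names.

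Cells near the limits of the selection were counted. There were 21 members with exactly 1 Gzmb UMI, and 99 CD8 T cells with 0 formed the Gzmb-negative set used below. With 2 CD3 UMIs there were 3 members, while 19 cells stayed outside at 1. With 1 CD8 UMI there were 6 members, while 95 T cells with Gzmb stayed outside at 0. On the Lyz2 limit, 10 members had 10 to 20 per 10000, and 14 cells stayed outside at 20 or more, 5 of them under 40. Depths of 1000 to 2000 UMIs were found in 2 members.

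T cell genes that the selection did not use were present in all 4 libraries. Thy1, a surface protein of mouse T cells, was at 491, 681, 669 and 609 CPM, that is UMIs per 1e+06 UMIs summed over the members of a library, and Lck, the kinase next to the T cell receptor, was at 298, 366, 304 and 328 CPM. Cd4 was at 0 with PBS and at most 6.58 CPM, the NK receptor Ncr1 at most 2.92 CPM and the B cell gene Cd79a at most 0.658 CPM. Of 9 gamma-delta T cell genes listed, 4 were found by symbol, and they summed to at most 1.97 CPM. T cell receptor constant genes were not used here. The 9 NK cell genes summed to 1595, 2268, 721 and 1918 CPM, a list that holds Gzma, and the 8 genes of CD4 and regulatory T cells to 256, 257, 399 and 201 CPM, a list that holds Il2ra, Ctla4 and Ikzf2.

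RNA of other cells was present in some members. At least 10 UMIs per 10000 of macrophage, neutrophil, MHC class II or B cell genes were found in 4 of 18, 23 of 186, 6 of 65 and 12 of 124 members. In the PBS library these cells had a median of 52077 UMIs against 21598.5 in the others, and they held 34.7% of the members' UMIs there. Free RNA was estimated at 3.00%, 6.87%, 5.05% and 7.16% of the members' UMIs. The summed level of 20 macrophage and monocyte genes in the members was 2541, 5415, 2675 and 5826 CPM, a list that holds Ly6c2, which T cells also express, and that of 12 dendritic cell genes was 8288, 1020, 1924 and 905 CPM. The deepest member held 13.2%, 2.23%, 7.05% and 2.24% of its library's sum.

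Between libraries, counts were summed over the members of each, and a gene entered with at least 20 UMIs in all and at least 50 CPM in 1 library. For each of the 3324 genes that entered, the difference was log2 of (CPM + 10) over (CPM + 10), which shrinks the difference of low genes, and an absolute value of at least 1 is called 2-fold. LNP-cGAMP against PBS had 68 genes higher (2.05% of those that entered) and 51 lower (1.53%). Anti-PD-L1 against PBS had 36 higher (1.08%) and 44 lower (1.32%). The combination against PBS had 50 higher (1.5%) and 57 lower (1.71%). The combination against anti-PD-L1 had 38 higher (1.14%) and 37 lower (1.11%), and against LNP-cGAMP it had 12 higher (0.361%) and 6 lower (0.181%). Without female members, anti-PD-L1 against PBS had 58 higher and 99 lower, the combination had 111 lower against PBS and 87 lower against anti-PD-L1, and against LNP-cGAMP it had 4 higher and 88 lower, over 28 members with anti-PD-L1 and 35 with the combination. The first 3 share the PBS library, with 18 members and 523399 UMIs, so its chance content enters all of them. With 1 library per treatment, none of these differences has a replicate check.

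Interferon-stimulated genes were higher on balance in the libraries with LNP-cGAMP. Of 24 genes of the type I interferon list that entered, 7 were at least 2-fold higher with LNP-cGAMP than with PBS and 0 lower, with a median log2 ratio of 0.76 against 0.06 over all genes. These were Ifi27l2a, Irf7, Bst2, Zbp1, Ly6a, Ly6c2 and Lgals3bp. Ifi27l2a, Ly6a and Ly6c2 stayed past 2-fold in all alternatives run, while a pseudocount of 50 brought Irf7 to 0.87, Bst2 to 0.98, Zbp1 to 0.86 and Lgals3bp to 0.82. The combination against anti-PD-L1, which shares no library with that comparison, had 2 higher, Ifi27l2a and Ly6c2, and 0 lower, with a median of 0.44 against 0.04 over all genes. Anti-PD-L1 against PBS had 1 higher and 1 lower with a median of -0.05, and the combination against PBS had 3 higher and 1 lower with a median of 0.33. The combination against LNP-cGAMP had none past 2-fold and a median of -0.40. In the comparison of LNP-cGAMP with PBS, other lists stood further from 0: dendritic cell genes had 5 of 5 lower with a median of -3.02, and macrophage genes 5 of 14 higher with a median of 0.97. In the combination against anti-PD-L1, macrophage genes had 8 of 14 higher with a median of 1.09. Their part in the interferon values was not tested. Summed over the type I interferon list, the level was 3985, 9628, 4369 and 6983 CPM. At 2000 UMIs per cell the median member had 7, 21, 9 and 14 UMIs of the list.

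Ly6c2, a GPI-anchored surface protein of activated and memory CD8 T cells, was at 99.4 CPM with PBS, 1388 with LNP-cGAMP, 322 with anti-PD-L1 and 828 with the combination. Single members had medians of 0.218, 13.9, 2.76 and 8.57 UMIs per 10000, and the lower quartile of LNP-cGAMP, 6.35, was above the upper quartile of PBS, 1.68. In summed counts LNP-cGAMP was 14.0-fold above PBS (10.6 to 18.7) and the combination 2.57-fold above anti-PD-L1 (2.34 to 2.83). With female members left out, the log2 ratio of the combination to anti-PD-L1 was 1.81, against 1.34 with all. Ly6c1, a near-identical neighbour on chromosome 15, could share reads with Ly6c2, which lies at 75108158 to 75111970 (minus strand).

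Ifi27l2a, an interferon-inducible mitochondrial protein gene on chromosome 12 (103442167 to 103443680, minus strand), was at 210, 1281, 292 and 1131 CPM. Both LNP-cGAMP libraries were high, by 6.09-fold over PBS (5.05 to 7.43) and 3.87-fold over anti-PD-L1 (3.51 to 4.28). Its median per 10000 UMIs was 1.79, 10.5, 0.356 and 7.96 per cell, and the ranges of single cells overlapped. Leaving out female members gave a log2 ratio of 3.82 between the combination and anti-PD-L1, against 1.92 with all. The level in free RNA was also high, at 1100, 1991, 1042 and 2356 CPM. After subtraction of free RNA, Ifi27l2a and Ly6c2 stayed past 2-fold in both comparisons. NK cells of the same libraries had 42.6, 197, 41.5 and 132 CPM of Ifi27l2a. Free RNA was not estimated in NK cells, and its part in the difference between members and NK cells was not tested.

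Ly6a (Sca-1), an interferon-inducible surface protein, was at 827, 2434, 1143 and 1728 CPM. Its median per cell was 4.15, 23.9, 7.49 and 14.7 UMIs per 10000. LNP-cGAMP was highest and PBS lowest, and the ratio of these 2 was 2.94-fold (2.67 to 3.25). Smaller differences were found in genes with known places in the response. Irf7, the transcription factor that amplifies type I interferon, was at 72.6, 174, 69.8 and 95.8 CPM, and Bst2 (tetherin) at 145, 335, 105 and 208 CPM. Zbp1, a nucleic acid sensor, was at 91.7, 207, 95.5 and 158 CPM. In these 3 LNP-cGAMP was highest and the combination second.

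Isg15 and Ifit1 of the same list stayed short of 2-fold between LNP-cGAMP and PBS. Isg15, a ubiquitin-like modifier, was at 99.4, 167, 53.3 and 101 CPM, and it had a UMI in 44.4%, 81.7%, 33.8% and 62.1% of members. It was higher in each LNP-cGAMP library than in its comparator, by 0.69 and 0.81 on the log2 scale, and 1 cell held 50% of its UMIs with PBS. Ifit1, which binds viral RNA, was at 63.1, 43.7, 15.8 and 21.9 CPM, highest with PBS and at least 2-fold lower with anti-PD-L1 and with the combination. A pseudocount of 50 brought these log2 ratios to -0.78 and -0.65. Of 13 genes of the interferon-gamma list, Gbp4 was the single gene higher with LNP-cGAMP than with PBS and none was lower, with a median of 0.31. Tmem173, which encodes STING, was at 97.4, 69.0, 54.0 and 60.8 CPM. The PBS level was highest in summed counts, where 1 cell held 35.3% of it. The median per cell was lowest with PBS, at 0.219 UMIs per 10000 against 0.571, 0.383 and 0.514.

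The promoters of 2 members of the list are shown because a core of the interferon-stimulated response element, GAAA then any 2 bases then GAAA, occurs in them in overlapping copies. RefSeq promoter sequences of GRCm38.p6 were searched on both strands over the 250 bases before the start, and overlapping matches were counted. Matches are in capitals, 5′ to 3′ on the gene's strand.
Bst2 (chr8:71537473-71537722, minus strand): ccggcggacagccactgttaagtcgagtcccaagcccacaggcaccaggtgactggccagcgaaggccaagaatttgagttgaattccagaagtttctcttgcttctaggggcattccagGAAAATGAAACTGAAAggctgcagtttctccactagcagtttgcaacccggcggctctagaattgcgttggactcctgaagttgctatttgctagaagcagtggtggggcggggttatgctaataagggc
Isg15 (chr4:156200819-156201068, minus strand): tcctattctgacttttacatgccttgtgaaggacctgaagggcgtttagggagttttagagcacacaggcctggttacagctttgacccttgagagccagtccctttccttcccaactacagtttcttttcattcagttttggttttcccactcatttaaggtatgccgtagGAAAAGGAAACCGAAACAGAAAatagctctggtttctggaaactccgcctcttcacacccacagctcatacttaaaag
Bst2 has 2 overlapping matches that begin 130 and 124 bases before the start, and Isg15 has 3 that begin 78, 72 and 66 bases before it. The motif was present in 6 of 16 genes of the list with a promoter in the table (37.5%), in 108 of 2586 genes that entered (4.18%) and in 978 of all 32851 promoters (2.98%). Among the 7 genes higher with LNP-cGAMP, 4 had a promoter in the table and Bst2 alone held the motif, while the windows of Ly6c2, Irf7 and Lgals3bp had no match.

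MHC class I genes, through which cells show antigen to CD8 T cells, were also higher on balance with LNP-cGAMP. Of 17 that entered, H2-Q7 alone passed 2-fold, and the median was 0.44 against PBS. H2-Q7 was at 392, 939, 573 and 825 CPM, with the PBS library lowest and LNP-cGAMP 2.40-fold above it (2.08 to 2.77). It cannot be fully told apart from its neighbour H2-Q6 in 3′ reads. The classical heavy chain H2-K1 was at 2063, 2986, 2129 and 2650 CPM, and B2m, its partner, at 1513, 2117, 1771 and 2002 CPM. The 2 LNP-cGAMP libraries were above the other 2 in all 3 genes.

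**Figure D2:**
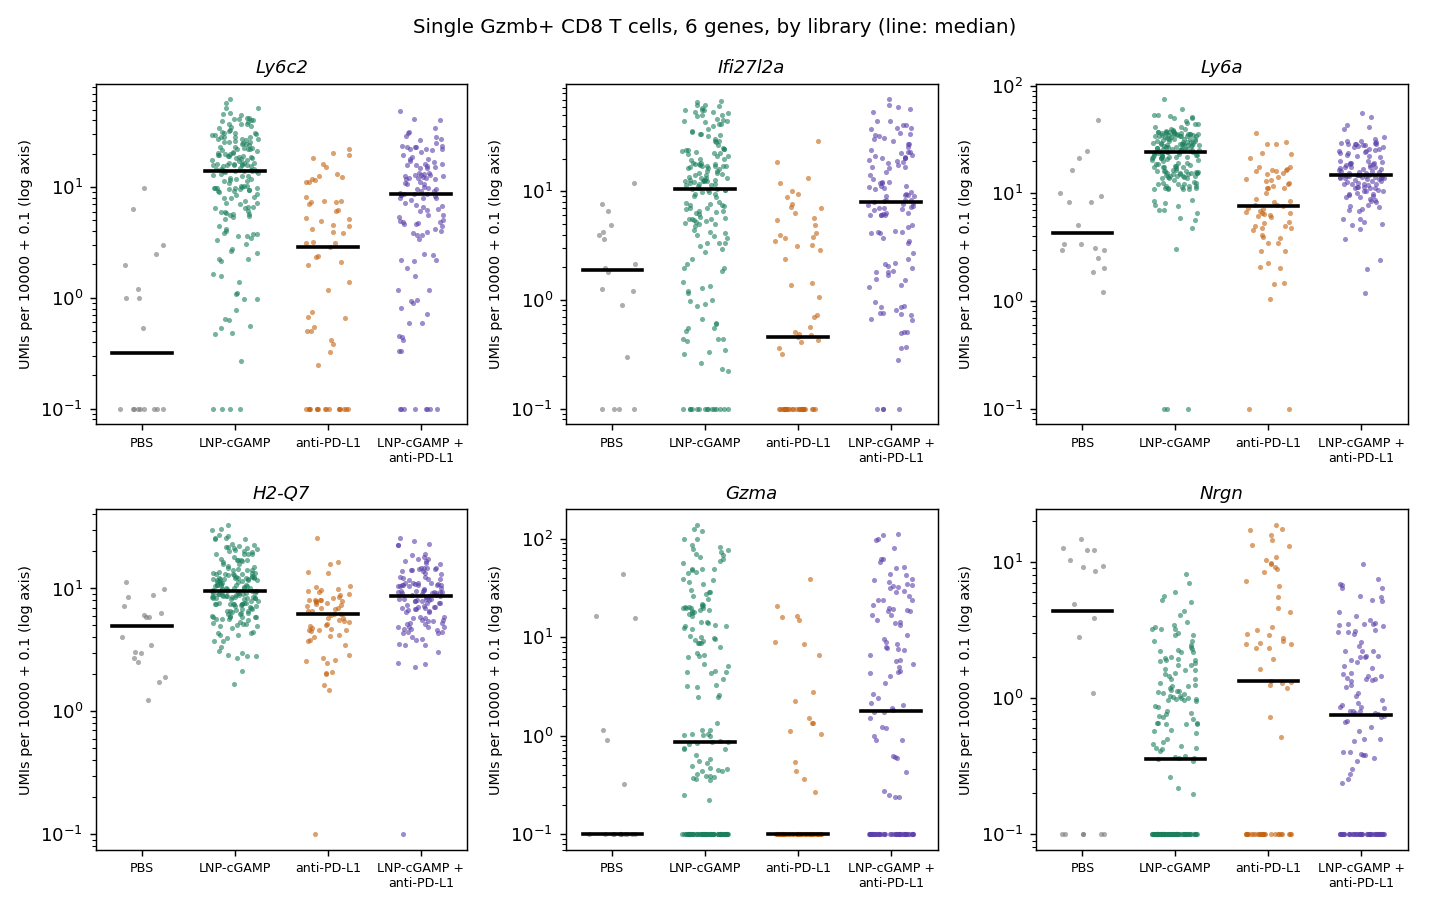
Single Gzmb-expressing CD8 T cells by library for Ly6c2, Ifi27l2a, Ly6a, H2-Q7, Gzma and Nrgn. Each point is a cell, the y axis is UMIs per 10000 plus 0.1 on a log scale, and lines are medians. Ly6c2 and Ifi27l2a medians are highest in the 2 LNP-cGAMP libraries and that of Nrgn is highest with PBS, with overlap between cells of all libraries.

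Granzyme genes differed between libraries in both directions. Of 7 granzyme and perforin genes that entered, leaving out Gzmb, LNP-cGAMP against PBS had 1 higher (Gzmk) and 2 lower (Gzmc and Gzmf), with a median of -0.22. Anti-PD-L1 against PBS had 3 higher and 1 lower with a median of 0.98, and the combination against anti-PD-L1 had 2 higher and 4 lower with a median of -3.03. Without members with RNA of other cells these 2 medians were -0.30 and 0.27. Gzma, a granzyme with trypsin-like specificity on chromosome 13 (113093825 to 113100981, minus strand), was at 793, 1493, 244 and 1265 CPM. A single cell held 72.5% of the Gzma UMIs of the PBS library, and with the deepest member of each library left out Gzma of anti-PD-L1 was at a log2 ratio of 0.06 to PBS, against -1.66 with all. The combination was 5.18-fold above anti-PD-L1 (4.66 to 5.77), and the log2 ratio stayed between 2.16 and 2.76 in all alternatives. Gzma UMIs were found in 6 of 18, 118 of 186, 19 of 65 and 78 of 124 members, so the 2 LNP-cGAMP libraries had it in more cells. Prf1, which encodes perforin, was at 124, 176, 139 and 136 CPM, with no 2-fold difference.

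Gzmc and Gzmf belong to the granzyme cluster of chromosome 14 that strongly stimulated cells express, and their close sequences can share reads. Gzmf was at 336, 27.3, 1944 and 115 CPM, and Gzmc at 95.5, 11.9, 198 and 15.4 CPM. Both were low in the 2 LNP-cGAMP libraries. These levels rested on few cells. One cell held 60.2% of the Gzmf UMIs with PBS and 81.4% with anti-PD-L1, and Gzmf was found in 4 of 18, 18 of 186, 16 of 65 and 11 of 124 members. With members that held RNA of other cells left out, the log2 ratio of Gzmf between anti-PD-L1 and PBS went from 2.50 to -0.30. Gzmd was at 442 CPM with anti-PD-L1 and at most 3.92 CPM elsewhere, and 93.3% of it was in 1 cell.

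The chemokine genes Ccl3 and Ccl4 were at least 2-fold higher in all 3 treated libraries than with PBS, both in part on single cells. Ccl4, a chemokine that draws T cells and myeloid cells, was at 237, 1021, 1731 and 689 CPM, and its top cell held 46.8%, 11.9%, 70.1% and 29.9% of the UMIs. Ccl3 was at 126, 397, 265 and 535 CPM, and its top cell held 51.5%, 21.97%, 25.6% and 67.4%. With cells weighted equally the log2 ratio of Ccl3 to PBS was 0.99 with LNP-cGAMP and 0.56 with anti-PD-L1. Without female members the ratios of the combination to PBS were 0.20 for Ccl3 and 0.27 for Ccl4, all 4 short of 2-fold. The log2 ratio of Ccl4 between anti-PD-L1 and PBS, 2.82, ran from 1.82 to 4.23 over the alternatives. Xcl1, which draws cross-presenting dendritic cells, had no UMI in the 18 PBS members and was at 5.65, 106 and 164 CPM in the others, in at most 11 cells of a library. Its top cell held 31.0%, 63.4% and 64.8% of the UMIs there. The log2 ratio of Xcl1 between the combination and PBS, 4.12, went down to 0.17 over the alternatives. Ifng was at 82.2, 98.6, 84.9 and 218 CPM. In the combination 1 cell held 72.2% of it, and without the top cell of each library the log2 ratio to anti-PD-L1 was -0.27, against 1.26 with all. Ccl5, at 3462, 3898, 3423 and 3418 CPM, differed little in summed counts. Its median per cell was lowest with PBS, at 13.5 against 38.8, 34.3 and 34.8 in the units given for Ly6c2 above. The quartile ranges of single cells overlapped between all libraries. A Ccl5 UMI was found in 77.8%, 97.8%, 93.8% and 97.6% of members.

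Pdcd1, Lag3 and Havcr2 were present in every library, while Cd200 and Ctla4 of the same list differed between libraries. Of 10 checkpoint genes that entered, LNP-cGAMP against PBS had 1 higher and 1 lower, with a median of -0.16, and the combination against anti-PD-L1 had 0 higher and 2 lower, with a median of -0.40. The genes past 2-fold were Ctla4 and Cd200. Pdcd1, which encodes PD-1, was at 441, 336, 447 and 319 CPM, Lag3 at 268, 259, 270 and 195 CPM, and Havcr2 (TIM-3) at 68.8, 73.5, 87.6 and 67.0 CPM. None of these 3 passed 2-fold. After thinning, Pdcd1 was found in 61.1%, 45.1%, 50.8% and 46.8% of members. Tox, a factor of the exhaustion programme, was at 187, 148, 125 and 136 CPM.

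A small set of genes was lower in both LNP-cGAMP libraries. Cd200, a ligand that restrains myeloid cells, was at 65.0, 6.63, 61.9 and 8.68 CPM, or 9.8-fold lower with LNP-cGAMP than with PBS and 7.13-fold lower with the combination than with anti-PD-L1. With PBS 1 cell held 47.1% of the Cd200 UMIs. Ikzf2 (Helios) was at 117, 19.9, 67.2 and 23.3 CPM. Nrgn, a calmodulin-binding protein gene on chromosome 9 (37544492 to 37552904, minus strand), was at 657, 87.5, 498 and 145 CPM, or 7.51-fold lower with LNP-cGAMP than with PBS (6.51 to 8.66). The 2 LNP-cGAMP libraries were below the other 2 in all 3 genes. With female members left out, the log2 ratios of the combination to anti-PD-L1 were -2.45 for Cd200 and -1.55 for Ikzf2, against -1.94 and -1.21 with all. With all members, a pseudocount of 50 in place of 10 brought the ratios to -0.93 and -0.68, short of 2-fold.

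Of 10 cytokine receptor genes that entered, Il2ra and Il12rb1 were at least 2-fold higher with LNP-cGAMP than with PBS and 0 lower, with a median of 0.06. The log2 ratio of Il12rb1 went down to 0.62 over the alternatives. Il2ra, the high-affinity IL-2 receptor chain, was at 13.4, 87.9, 52.7 and 52.1 CPM, with PBS lowest and LNP-cGAMP 6.57-fold above it. With PBS it was found in 5 of 18 members. Cxcr3, a receptor that guides effector T cells, was at 26.8, 97.7, 81.6 and 102 CPM, and its ratio of LNP-cGAMP to PBS was 0.94 with a pseudocount of 50, against 1.55. Cd2, an adhesion receptor, was at 182, 427, 292 and 375 CPM. All 3 treated libraries were above PBS in each of these genes.

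Of 8 naive and memory genes that entered, Ccr7 and Il7r were at least 2-fold higher with anti-PD-L1 than with PBS and 0 lower, with a median of 0.42. Ccr7, which leads naive cells to lymph nodes, was at 30.6, 19.5, 130 and 26.3 CPM, and Il7r, a survival receptor, at 22.9, 42.3, 77.7 and 34.7 CPM. One cell held 49.2% of the Ccr7 UMIs with anti-PD-L1, and with cells weighted equally the log2 ratio of Ccr7 to PBS was -0.02. That of Il7r went down to 0.81 over the alternatives, short of 2-fold. After thinning, 33.3%, 24.5%, 44.6% and 16.9% of members had a UMI of Tcf7, Il7r, Ccr7 or Lef1.

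Division genes were lowest with anti-PD-L1 in the measures given here, though the share of thinned members with Mki67 was level with PBS. At 2000 UMIs per cell the median member had 15.5, 19, 8 and 20 UMIs of the genes of G2 and M phase. Of 28 genes of G2 and M phase, only Aurka passed 2-fold in the comparison of anti-PD-L1 with PBS, where the median was -0.47, and a pseudocount of 50 brought Aurka to -0.82. None passed it in the other 4 comparisons. Mki67, a marker of cycling cells, was at 308, 249, 237 and 283 CPM, and thinned members with an Mki67 UMI were 27.8%, 34.8%, 27.7% and 40.3%. The histone gene Hist1h2ap was at 1400, 1875, 271 and 1683 CPM. Anti-PD-L1 was 5.16-fold below PBS (4.57 to 5.84) and 6.21-fold below the combination (5.62 to 6.87) in this gene. Of 28 nuclear genes of oxidative phosphorylation and 18 of S phase, none passed 2-fold in any of the 5 comparisons.

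**Figure D3:**
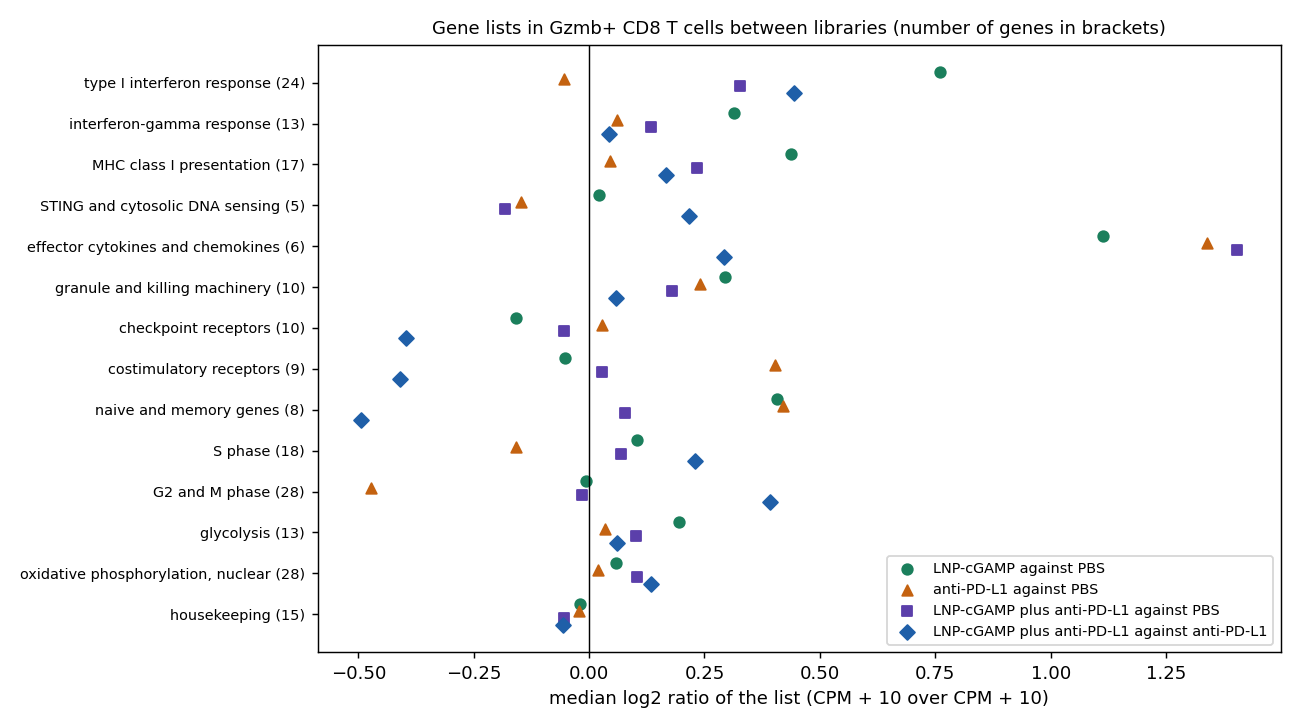
Median log2 ratio of 14 gene lists in Gzmb-expressing CD8 T cells, for 4 comparisons between libraries (colours and shapes), with the number of genes in brackets. The type I interferon list is at 0.76 with LNP-cGAMP against PBS and at 0.44 with the combination against anti-PD-L1, and at -0.05 with anti-PD-L1 against PBS.

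The 2 comparisons that add LNP-cGAMP, LNP-cGAMP against PBS and the combination against anti-PD-L1, share no library. Higher in both were 19 genes, or 27.9% of the 68 and 50% of the 38. Among them were Ly6c2, Ifi27l2a and Gzmk, and also the macrophage genes C1qa, Ccl2, Ccl7, Ccl8, Ccl12 and Saa3. Over the alternatives, the log2 ratio of Gzmk went down to 0.75 and 0.77 in the 2 comparisons, short of 2-fold. Lower in both were 16 genes, or 31.4% of the 51 and 43.2% of the 37. They included Cd200, Ikzf2, Nrgn, Gzmc, Gzmf and the MHC class II genes Cd74 and H2-Aa. Called members were all male in the PBS and LNP-cGAMP libraries, while in the other pair the female share was 69.4% with anti-PD-L1 and 95.6% with the combination.

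Some of the shared genes are known from macrophages and dendritic cells. Saa3, an acute-phase gene of macrophages, was at 7.64, 416, 53.3 and 1080 CPM in the members and at 1046, 5457, 1031 and 3592 CPM in free RNA. The median member of the 2 LNP-cGAMP libraries had 1.56 and 1.49 Saa3 UMIs per 10000, and 1 cell held 45.1% of it in the combination. Cd74, the MHC class II invariant chain, was at 3882, 462, 959 and 469 CPM, and 1 cell held 35.1% of it with PBS. Without members with RNA of other cells, the log2 ratio of Cd74 between LNP-cGAMP and PBS was -1.43, against -3.04 with all. How far these 2 genes are expressed by the members themselves was not tested.

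The second question was how these cells differ from CD8 T cells without Gzmb in the same pools. Here the pools served as replicates, each under a different treatment. Counts were summed per library and cell set, and the 8 sums were tested with edgeR's quasi-likelihood test with the library as a block. Of 4978 genes tested, 596 were higher in the Gzmb-expressing cells (12.0%) and 617 lower (12.4%) at an adjusted p under 0.05. The median log2 fold change of all genes was 0.03. Without the anti-PD-L1 library the counts were 363 and 381, and without the LNP-cGAMP library 388 and 471. The Gzmb-negative cells were shallower, with medians of 6012, 6934, 6166 and 5964.5 UMIs per cell, and a deep cell is more likely to show a Gzmb UMI. The part of depth in these differences was not tested.

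Other cytotoxic genes rose with Gzmb. All 4 granzyme and perforin genes tested were higher. Gzma was at 793, 1493, 244 and 1265 CPM in the Gzmb-expressing cells and at 0, 15.6, 0 and 0 CPM in the others, with no overlap (log2 fold change 7.40, SE 0.44, edgeR adjusted p = 1.09e-05). Gzma had 4 UMIs in all Gzmb-negative cells, a ratio of 254 in summed counts (99.0 to 931). Gzmf had 3680 UMIs in the Gzmb-expressing cells and 0 of 840942 in the others, at least 96.0-fold higher over the 4 libraries, counting 3 UMIs as the floor. Single Gzmb-expressing cells held 81.4% of the Gzmf UMIs with anti-PD-L1 and 72.5% of the Gzma UMIs with PBS. Prf1 had a log2 fold change of 3.37 and Gzmk of 2.99. Of 5 cytokine genes, Ifng, Ccl3 and Ccl4 were higher. Ccl3 and Ccl4 had log2 fold changes of 3.53 and 3.91, and Ifng, with 2 UMIs in all Gzmb-negative cells, had a ratio of 57.0 in summed counts (15.7 to 471). Single Gzmb-expressing cells held 72.2% of the Ifng and 67.4% of the Ccl3 UMIs with the combination, and 70.1% of the Ccl4 UMIs with anti-PD-L1. Ccl5 was at 0.57 and did not pass (edgeR adjusted p = 0.0556).

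Receptors of activated and chronically stimulated T cells were higher as well. Of 10 checkpoint genes 7 rose and 0 fell, with a median of 1.62. Pdcd1 was at 130, 27.2, 131 and 99.0 CPM in the Gzmb-negative cells, below each value given above for the Gzmb-expressing cells (log2 fold change 1.90, SE 0.30, edgeR adjusted p = 0.00156). Lag3, Havcr2 and Ctla4 had log2 fold changes of 1.87, 2.21 and 1.90. Tnfrsf9 (4-1BB), a costimulatory receptor, was at 3.00. Tox, at 1.04, did not pass (edgeR adjusted p = 0.0693).

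Division genes rose, and some energy genes did. All 20 S phase genes tested were higher, with a median of 2.13, and 27 of 28 genes of G2 and M phase, with a median of 2.96. Mki67 was at 10.0, 3.89, 106 and 0 CPM in the Gzmb-negative cells (log2 fold change 2.92, SE 0.60, edgeR adjusted p = 0.00567). Rrm2, a subunit of ribonucleotide reductase, was at 4.94. Of 14 glycolysis genes 7 were higher, among them Ldha at 1.29, and of 28 nuclear oxidative phosphorylation genes 7, with none lower in either list. Lgals1, which activated T cells express, rose by 2.06, and Cxcr6, a receptor of tissue T cells, by 1.80.

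Naive and memory genes were lower in the Gzmb-expressing cells. Of 13 tested, 12 fell and 0 rose, with a median of -2.95. Tcf7, the factor of naive and stem-like T cells, was at 22.9, 21.6, 18.4 and 12.6 CPM in the Gzmb-expressing cells and at 231, 218, 243 and 386 CPM in the others, with no overlap (log2 fold change -4.07, SE 0.30, edgeR adjusted p = 3.84e-05). Il7r was at -3.67 and Ccr7 at -2.99. Klf2, which sustains S1pr1 and recirculation, was at -2.77, and S1pr1 itself at -3.25.

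Interferon-stimulated genes took a smaller share of the RNA of Gzmb-expressing cells than of Gzmb-negative ones. Of 34 genes of the type I list 25 fell and 0 rose, with a median of -1.25, and of 17 genes of the interferon-gamma list 13 fell and Irf8 rose, with a median of -1.30. Ifit3 was at 42.0, 40.5, 20.4 and 16.8 CPM against 125, 233, 109 and 178 CPM (log2 fold change -2.71, SE 0.29, edgeR adjusted p = 0.000207). Irf7 was at -1.65. Ly6c2, at -0.73, did not pass (edgeR adjusted p = 0.0508). MHC class I genes had 7 of 18 lower and 0 higher, with H2-K1 at -0.57. Macrophage and monocyte genes moved the same way, with 5 of 14 lower, 0 higher and a median of -1.12. They summed to 2674, 17479, 7162 and 3296 CPM in the Gzmb-negative cells against 2541, 5415, 2675 and 5826 CPM, and their part in the interferon values was not tested. In molecules of the type I list per cell, without thinning, the order was the reverse. The median Gzmb-expressing cell had 88.5, 229.5, 62.0 and 170.5 UMIs of the type I list, and the median Gzmb-negative cell 39.0, 88.0, 38.0 and 52.5. The Gzmb-expressing cells were also deeper, with medians of 26512.5, 23779, 16572 and 25512 UMIs in all against 6012, 6934, 6166 and 5964.5. The part of depth in this order was not tested.

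**Figure D4:**
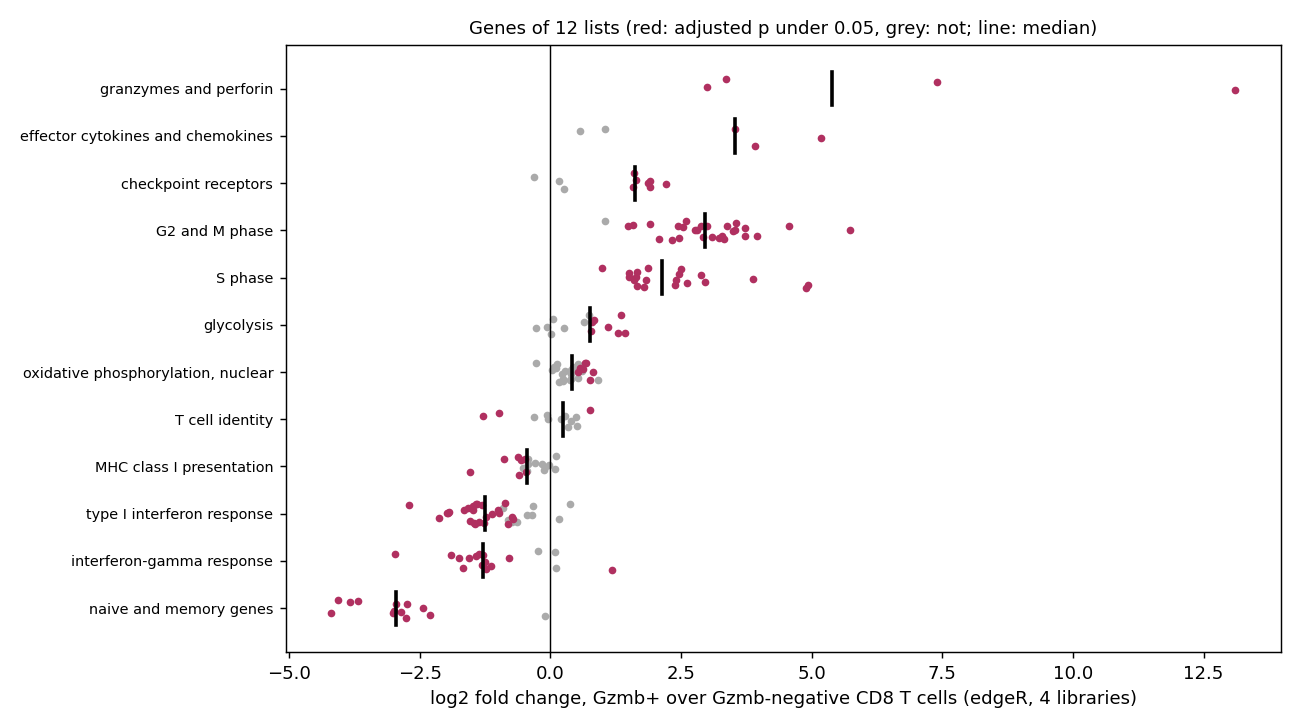
Log2 fold change of single genes of 12 lists, Gzmb-expressing over Gzmb-negative CD8 T cells, from the 4 libraries (red, edgeR adjusted p under 0.05; grey, not; lines, medians). Medians of the division, granzyme, cytokine and checkpoint lists lie above 0 and those of the naive and interferon lists below. Single genes can differ from their list, as Irf8 of the interferon-gamma list does, which lies above 0. The rightmost point is Gzmf, whose fitted value depends on the prior count since it had 0 UMIs in the Gzmb-negative cells.

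The third question was how these T cells differ from NK cells of the same pools, the other cytotoxic lymphocytes. NK cells had no CD3 UMI, at least 2 UMIs of Ncr1 and Klrb1c together and the same Lyz2 limit, and numbered 160. Of 7524 genes tested with edgeR in the same way, 653 were higher in the Gzmb-expressing CD8 T cells (8.68%) and 635 lower (8.44%). Without the combination library the counts were 358 and 399. Median depth of NK cells was 5608, 21568, 7762 and 9212 UMIs.

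The T cells had less of the NK granzymes and more of the inhibitory receptors. Gzma was at 4566, 9699, 7779 and 8452 CPM in NK cells, above every T cell value (log2 fold change -3.27, SE 0.28, edgeR adjusted p = 1.47e-07). Gzmm, a granzyme of innate lymphocytes, was at -2.85, while Gzmk was at 2.36 and Gzmf at 4.66. Prf1 was at -0.07 and did not pass (edgeR adjusted p = 0.861, SE 0.20). Of 10 checkpoint genes 8 were higher and 1 lower. Pdcd1 was at 0, 0.616, 65.2 and 0 CPM in NK cells (log2 fold change 5.08, SE 0.51, edgeR adjusted p = 1.16e-06), Havcr2 was at 4.03 and Tox at 2.36. Cxcr6 was at 5.40 and Il2ra at 4.27. The T cell surface proteins Cd6 and Cd5 had 0 of 2513693 NK cell UMIs, and were at least 72.2-fold and at least 53.4-fold higher in the T cells.

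Killer lectin-like receptors, through which NK cells read MHC class I and stress ligands, were lower in 9 of 10 genes and higher in 0, with a median of -3.19. Klrk1 (NKG2D) was at -1.71, and Eomes, a T-box factor of NK and memory T cells, at -2.94. Klrg1, a receptor of terminally differentiated cells, was at -3.83. MHC class I genes had 5 of 18 lower and 0 higher. Division genes were higher in 7 of 22 S phase genes and 11 of 29 genes of G2 and M phase, with none lower.

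Of 41 type I interferon genes tested against NK cells, 11 were higher and 2 lower, with a median of 0.11. Ifi27l2a had the values given above and passed (log2 fold change 2.70, SE 0.15, edgeR adjusted p = 6.11e-10), and so did Ly6c2, at 1.34. Ly6c2 was at 52.0, 621, 110 and 225 CPM in NK cells, highest with LNP-cGAMP as in the T cells. Irf7 was at -0.03 (edgeR adjusted p = 0.949, SE 0.17). Macrophage genes were higher in the T cells for 13 of 18 genes and lower for 2, and dendritic cell genes for 5 of 6 and lower for 1, with Csf1r at 1.14. In the members those markers summed to the levels given above, and their part in the comparison with NK cells was not tested.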

How the data were processed

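Single-cell libraries of pleural fluid from 4 pools of 3 mice were analysed from the deposited UMI counts, whole numbers without normalisation. Per the file headers, the authors ran Cell Ranger 3.0.2. The build was mm10 per the submitters' processing notes. The deposited count tables list 27998 genes and 6794880 barcodes per library, empty droplets included. From them, cells were filtered and selected by the limits in the report with Python 3.11.15, scipy 1.17.1 and scanpy 1.11.5. Counts were summed per library over the selected cells, 523399 to 5130218 UMIs. Exact Clopper-Pearson and Poisson intervals (95%) cover counting error only. Treatments had 1 library each and were compared without a test. Gzmb-expressing cells were compared with Gzmb-negative CD8 T cells and with NK cells by edgeR 4.0.16 (quasi-likelihood test, TMM, library as block, Benjamini-Hochberg adjustment) in R 4.3.3, checked on simulated counts. DESeq2 1.42.0 was an alternative. These p-values measure how far the difference within a pool varied from pool to pool, and the pools differed in treatment and sex. The SE given with a log2 fold change is its absolute value over the square root of the test's F, not a separate estimate. Free RNA was profiled from barcodes of 10 to 100 UMIs.

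Named genes were, per comparison of libraries, the 5 highest and 5 lowest log2 ratios among genes with a UMI in at least 20% and at least 5 members of the higher library. For tested comparisons they were the 10 highest and 10 lowest with 1 direction in all 4 libraries, and in each list those past the threshold with up to 4 examples. Members and lists were chosen with earlier results of these data known. Genes whose symbol occurs more than once in the files are not named. Results on some genes are not reported here.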

Additional observations from a re-analysis of the deposited data

Results flagged for a closer look

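Ccl4 and Ctla4 passed 2-fold in opposite directions in the 2 comparisons that add LNP-cGAMP. The log2 ratio of Ccl4 was 2.06 with LNP-cGAMP against PBS and -1.32 with the combination against anti-PD-L1. For Ctla4, an inhibitory receptor of activated T cells, the ratios were 1.04 and -1.04. With 1 library per treatment the difference between the 2 comparisons was not tested. Without the top cell of the gene the second ratio was -0.12 for Ccl4 and -0.40 for Ctla4, both short of 2-fold. Over all alternatives the second ratio ran from -3.97 to -0.12 for Ccl4 and from -1.15 to -0.40 for Ctla4. The first ratio of Ctla4 fell short too, at 0.65 with a pseudocount of 50 and 0.80 without members with RNA of other cells.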

How the results depend on the processing

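Of the log2 ratios under alternatives, 1000 kept direction and side of 2-fold, 162 fell short of it and 13 reversed. Per gene, the named genes that stayed past 2-fold in all alternatives were 17 of 33 for LNP-cGAMP, 7 of 24 for anti-PD-L1 and 5 of 27 for the combination against PBS, 9 of 24 for the combination against anti-PD-L1 and 1 of 13 against LNP-cGAMP. The alternatives that leave out members with other-cell RNA, female members, the deepest members or a gene's top cell were chosen after seeing the data. The share of cells was 6.65% with LNP-cGAMP, 2.63% with anti-PD-L1 and 4.47% with the combination at a minimum of 5000 UMIs, and 1.26% with anti-PD-L1 at 5% mitochondrial UMIs. Counts of genes higher and lower are given in the order LNP-cGAMP, anti-PD-L1 and combination against PBS, then combination against anti-PD-L1 and against LNP-cGAMP. A pseudocount of 50 gave 24 and 23, 11 and 16, 18 and 24, 18 and 14, and 7 and 2. No CPM minimum gave 123 and 129, 88 and 103, 90 and 127, 59 lower, and 21 and 12. A Lyz2 limit of 5 gave 73 lower for anti-PD-L1 and 30 and 90 for the combination against PBS, and 5 and 23 in the last. Subtracting free RNA gave 12 lower in the last. Without members with other-cell RNA there were 29 lower with LNP-cGAMP and 29 with the combination against PBS, 22 higher against anti-PD-L1, and 5 and 3 in the last. Without the deepest members 62 were higher with the combination than with anti-PD-L1. Without female members there were 58 and 99 for anti-PD-L1 and 111 lower for the combination against PBS, 87 lower against anti-PD-L1, and 4 and 88 in the last, over fewer cells.

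The granzyme median reversed for anti-PD-L1 against PBS to -0.21 (Lyz2 limit 5) and -0.30 (without other-cell RNA), and for the combination against anti-PD-L1 to 0.15, 0.27 and, without the deepest members, 0.13. Against PBS with anti-PD-L1, Gzmf reversed to -0.30 and H2-Eb1 to 0.20 without other-cell RNA, Ccr7 to -0.024 with equal cell weights and Gzma to 0.064 without the deepest members. Without female members, Ifng of the combination was -0.41 to PBS, -1.06 to anti-PD-L1 and -0.65 to LNP-cGAMP, and against LNP-cGAMP Arg1 was -0.27, Saa3 -1.57 and Xcl1 -0.48. Without its top cell Ifng was -0.27 and -0.40 to the single agents. Saa3 was -0.66 to LNP-cGAMP without other-cell RNA. The causes were not tested.

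Against Gzmb-negative cells edgeR called 1126 genes higher with no minimum count, and DESeq2 428 higher and 479 lower. Leaving out 1 library gave 363 to 521 higher and 381 to 547 lower. Against NK cells, no minimum count gave 1070 higher and DESeq2 389. Leaving out 1 library gave 358 to 685 higher and 399 to 703 lower. With no replicate block the counts were 777 and 730, and 456 and 516. The named tested genes kept their side in these settings. No paired analysis was possible between treatments because each has 1 library. The 18 PBS members limit every comparison with PBS.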

Other observations

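Gzmb levels of members called female and male could be set side by side in the mixed pools. With anti-PD-L1, 34 female members had a median of 7.06 Gzmb UMIs per 10000 and 15 male members 15.3. With the combination, 86 female members had 31.7, 4 male members 11.2 and 31 members with no sex gene UMI 59.5. The order of female and male members was not the same in the 2 pools, and the cells of 1 pool are not replicates. Female calls made up 95.6% of called members of the combination (exact 95% interval 89.0 to 98.8) and 77.8% of its other called cells (76.0 to 79.5).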
